A study of Mus musculus with 6 samples.

Results

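The genes described here are 32 members of the amino acid stress response that the transcription factor ATF4 directs, out of 51912 genes listed in each library. They were taken by symbol from a list of known ATF4 pathway genes, with no cut on their values. The choice was made with earlier results of these data known, and all 32 were found. Of these, 30 passed a filter on low counts. The cystine transporter gene Slc7a11 and the secreted glycoprotein gene Stc2 did not.

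The RNA-seq libraries came from small intestinal epithelium sorted from C57BL/6 mice, with no genetic change named in the labels. SPF mice were free of particular pathogens, GF (germ-free) mice had no microbiota, and AF (antigen-free) mice were kept without foreign antigens from either microbes or food. The 2 libraries of each group keep their label numbers: 3 and 4 for SPF, 1 and 3 for GF, 2 and 3 for AF. The comparison of GF with SPF bears on the microbiota, that of AF with GF on food antigens in mice that lack microbes, and that of AF with SPF on both. The sources used here do not state the age or sex of the mice, or the make-up of the diets and the amino acids they supplied. The groups also bear different date-like marks, so group and date cannot be told apart. Nothing in the labels says that the 2 libraries of a group came from separate animals, and p-values therefore measure only the spread between these samples.

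When a cell lacks an amino acid, uncharged tRNA activates the kinase GCN2, which phosphorylates the initiation factor eIF2. PERK does the same when unfolded proteins collect in the endoplasmic reticulum, and PKR and HRI do so on other stresses. General translation then slows while ATF4 mRNA is translated more, so that ATF4 protein can rise with little change of its mRNA. ATF4 pairs with C/EBP family proteins on composite sites of target genes, which make, import and charge amino acids, and with CHOP (Ddit3) it also induces Trib3, Chac1 and the phosphatase subunit GADD34 (Ppp1r15a), which reverses the phosphorylation of eIF2. Protein, phosphorylation and translation were not measured here. In bulk RNA, fewer cells of a type and less RNA per cell cannot be told apart.

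The composite site is shown because ATF4 is known to act on its target genes through it. Its core, TGATGNAA, was searched on both strands of the window from 250 bases before to 50 bases after the RefSeq start of each gene (GRCm38.p6). It was found in 9 of the 27 members with a window, or 33.3%, against 4.51% of all 27025 genes with a window. The looser letters TGANGNAA, which include the first pattern, were found in the same 9 members and in 18.6% of all genes. The list was drawn up from known ATF4 targets, so this share describes the list, and a match is not evidence of binding here. The stretches below are written along the gene's own strand with the core, or its reverse complement, in capitals. They lie at chr6:7693214-7693243 (Asns, minus strand), chr2:119351038-119351067 (Chac1, plus), chr3:50443652-50443680 (Slc7a11, minus), chr6:55037960-55037989 (Gars, plus), chr7:126625562-126625591 (Nupr1, minus), chr11:120643833-120643862 (Pycr1, minus) and chr19:27216809-27216838 (Vldlr, plus).
Asns: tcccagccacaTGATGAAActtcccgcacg
Gars: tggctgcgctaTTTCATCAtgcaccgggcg
Chac1: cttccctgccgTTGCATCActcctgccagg
Slc7a11: cTGATGCAAacctggagaatTTGCATCAt
Nupr1: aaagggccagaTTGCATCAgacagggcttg
Pycr1: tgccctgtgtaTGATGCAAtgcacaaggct
Vldlr: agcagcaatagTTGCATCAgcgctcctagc
Asns and Gars carry the form TGATGAAA, the other 5 printed carry TGATGCAA, and Slc7a11 holds it once in each direction. Trib3, also among the 9, has its match after the RefSeq start. The stretches of Asns, Nupr1 and Vldlr lie before the RefSeq start but inside the longer GENCODE span of the gene. Wars, Nars, Eif4ebp1, Slc7a5 and Cth had no window in the table.

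The libraries held 16109488 to 19417054 expected counts, and mitochondrial genes took 17.9 to 35.3% of them. Levels are given as CPM, counts scaled to 1 common library total after TMM normalisation, for comparing libraries, and as TPM, which also corrects for transcript length, for comparing genes. A count of 3, the floor below which a level is not read, was worth 0.109 to 0.236 CPM. Epithelial markers were abundant in every library, the summed level of 9 enterocyte and epithelial genes being 19360 to 54520 CPM. SPF replicate 4 stood apart: the sum of 13 crypt and proliferation markers was 94.5 CPM there, against 573 CPM in SPF replicate 3 and 252 to 649 CPM in the other 4 libraries, and the sum of 9 Paneth cell markers was 42.5 CPM against 935 to 5656 CPM elsewhere. Lymphocyte markers summed to 237 and 89.3 CPM (SPF), 40.7 and 382 CPM (GF), and 22.5 and 15.3 CPM (AF). Y-linked genes (Ddx3y, Eif2s3y, Kdm5d, Uty) had 0 counts in SPF and stood above the floor in the other 4 libraries. Xist stood at 129.7 and 96.6 CPM in SPF and had 0 to 3 counts in GF replicate 1 and both AF libraries, so sex and group cannot be told apart in comparisons with SPF. GF replicate 3 held both, with Xist at 14.8 CPM and Eif2s3y at 22.5 CPM. Without it, 19 tested members had positive and 11 negative estimates in GF versus SPF, and 13 and 17 in AF versus GF. With all 6 libraries these splits were 20 and 10, and 14 and 16.

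The members spanned a wide range of levels. By mean TPM over the 6 libraries, 5 members stood at 50 or more, 11 at 10 to 50, 10 at 1 to 10 and 6 below 1. The highest were Atf4 itself (127.6 TPM), Slc3a2, the shared heavy chain of several amino acid exchangers (125 TPM), Ddit3 (73.7 TPM), Aldh18a1, the first enzyme from glutamate towards proline and ornithine (69.1 TPM), and Nars, the asparaginyl-tRNA synthetase (51.9 TPM). Below 1 TPM stood Vldlr, a lipoprotein receptor, Slc7a5, the leucine transporter LAT1, Pycr1, the last enzyme of proline synthesis, Chac1, which degrades glutathione, Slc7a11 and Stc2. Asns, the asparagine synthetase often used as a readout of this pathway, averaged 7.17 TPM, with 1.28 TPM in its lowest library and 13.9 TPM in its highest.

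**Figure D1:**
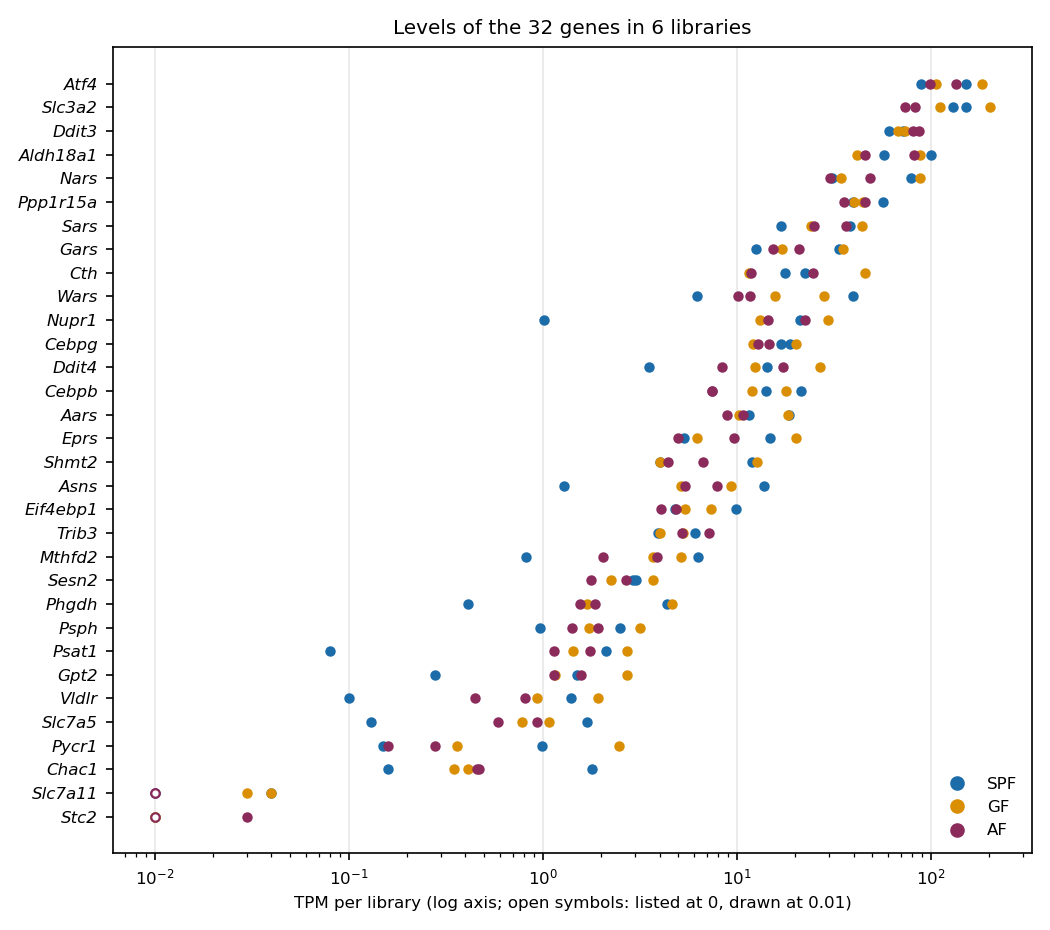
TPM (log axis) of the 32 genes in each of 6 libraries, ordered by mean TPM, with 1 point per library coloured by group and open symbols for values listed at 0. Atf4 and Slc3a2 lead at 127.6 and 125 TPM, Slc7a11 and Stc2 are at or near 0, and 1 SPF library, replicate 4, lies far to the left for genes such as Nupr1, Psat1 and Asns.

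No member passed the test in any comparison. Testing used the quasi-likelihood method of edgeR over 13644 genes, and a gene was called when its p, adjusted by Benjamini-Hochberg, was below 0.05. It called 0 of the 30 tested members in GF versus SPF, against 0.0147% of all genes. It called 0 members in AF versus GF, against 0.0147% of all genes (0.00733% higher and 0.00733% lower), and 0 in AF versus SPF, against 0.044% (0.0293% higher and 0.0147% lower). For any difference among the groups it called 0 members, against 0.0293%. DESeq2, edgeR's likelihood ratio test and limma on log2 TPM also called 0 members in each comparison. At an unadjusted p below 0.05 there was 1 member in GF versus SPF (Ddit4, higher), where 3.2% of all genes were higher and 3.51% lower. There was 1 in AF versus GF (Pycr1, lower), where 1.52% of all genes were higher and 2.07% lower, and there were 2 in AF versus SPF (Sars higher, Cebpb lower), where 4.77% were higher and 6.52% lower. The F test for any difference gave 1 member, Cebpb, against 7.32% of all genes.

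The median log2 fold change of the 30 members was 0.18 in GF versus SPF, -0.03 in AF versus GF and 0.16 in AF versus SPF, beside 0.02, -0.02 and 0.01 over all genes. The numbers of members with a positive and a negative estimate were 20 and 10, 14 and 16, and 17 and 13. The majority turned with 1 library: without SPF replicate 4 the split was 12 and 18 in both GF versus SPF and AF versus SPF. Without AF replicate 3 it was 10 and 20 in AF versus GF and 12 and 18 in AF versus SPF, and without GF replicate 1 or without AF replicate 2 it was 17 and 13 in AF versus GF. Library totals without TMM moved the median of all genes to 0.16, -0.38 and -0.20 and the members' split to 23 and 7, 5 and 25, and 12 and 18. TPM moved the median of all genes to -0.36 in AF versus GF and -0.31 in AF versus SPF, on log2(TPM + 1), and the split of the 28 members tested there to 3 and 25 and to 11 and 17. Read against the median of all genes, 14 members lay above it and 16 below it in AF versus GF under both TMM and library totals, and 14 and 14 on log2(TPM + 1). Fold changes below are on TMM-scaled counts, where the median gene lay near 0, unless another scale is named. The comparisons share libraries, and their values are set side by side without counting 1 as support for another.

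**Figure D2:**
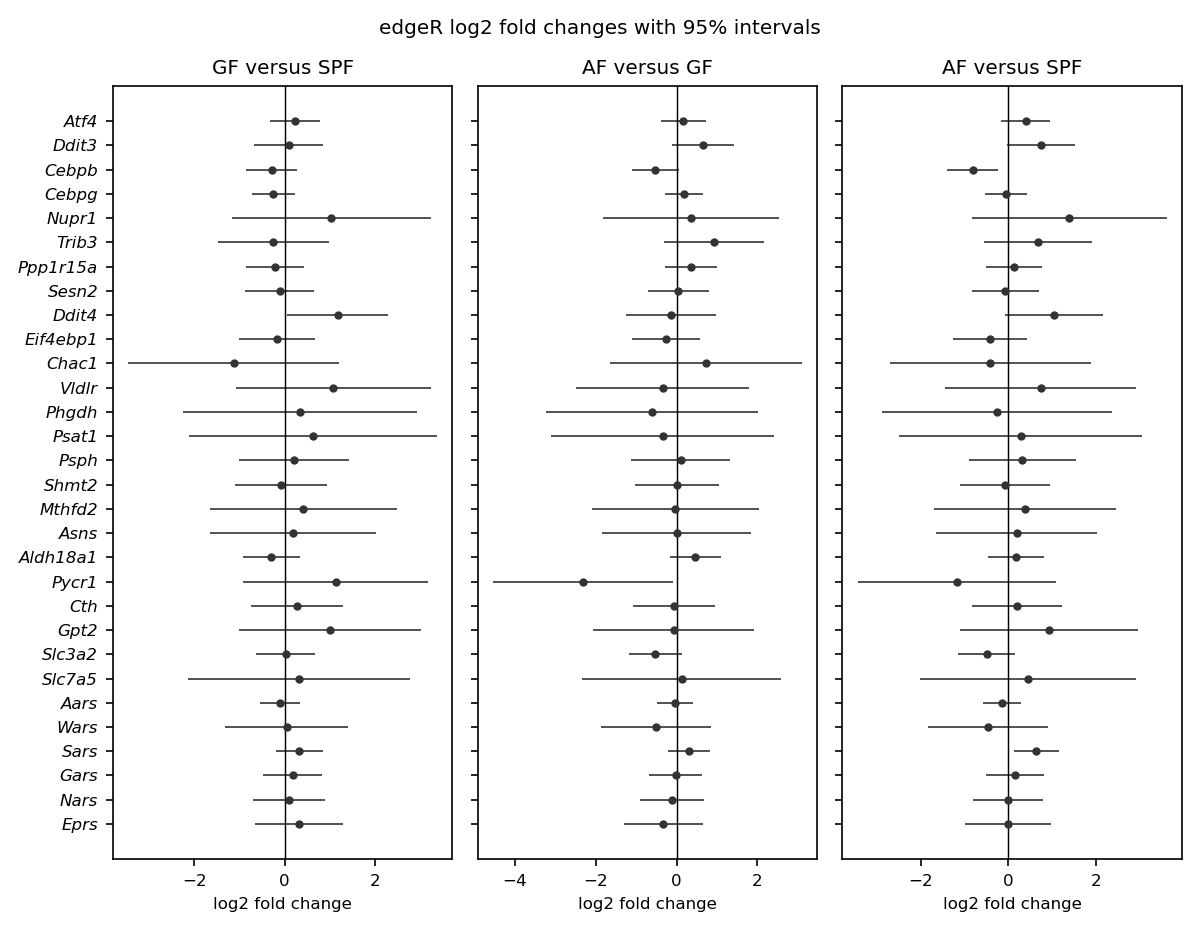
edgeR log2 fold changes of the 30 tested members (points) with 95% intervals (bars) in the 3 comparisons, on TMM-scaled counts, ordered by role. Nearly all intervals span 0. Those of Ddit4 (GF versus SPF), Pycr1 (AF versus GF), and Cebpb and Sars (AF versus SPF) do not, and none of these passed adjustment over all genes. With library totals or TPM, Atf4 and Sars turn negative in AF versus GF and Atf4 is near 0 in AF versus SPF on TPM. With library totals the members' estimates in AF versus GF split into 5 positive and 25 negative.

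Among the regulators, Atf4 (chr15:80255184-80257541 on GRCm38) was lowest in SPF and highest in AF on TMM-scaled counts. It stood at 169.6 and 159 CPM (SPF), 189 and 196 CPM (GF), and 213 and 219 CPM (AF), so that no 2 groups overlapped. Its log2 fold change was 0.23 (SE 0.23) in GF versus SPF, 0.17 (SE 0.23) in AF versus GF and 0.39 (SE 0.23) in AF versus SPF (edgeR adjusted p = 0.848, 1 and 0.564). The 95% interval in AF versus SPF ran from -0.16 to 0.95. Its order rests on the scaling: in TPM the gene measured 153 and 88.7 in SPF, 184 and 106 in GF, and 99.1 and 135 in AF, and the groups overlapped. On log2(TPM + 1) its AF versus GF value was -0.27, which lay 0.086 above the median of all genes, and its AF versus SPF value was -0.01, or 0.30 above that median. With library totals, without TMM, its value in AF versus GF was -0.18, or 0.20 above the median.

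Ddit3 (chr10:127290774-127296288), which encodes CHOP, the partner of ATF4 in prolonged stress, measured 36.0 and 50.3 CPM (SPF), 34.5 and 57.4 CPM (GF), and 79.6 and 65.0 CPM (AF). The AF libraries lay above the 4 others, and SPF and GF overlapped. The log2 fold change was 0.66 (SE 0.32) in AF versus GF and 0.75 (SE 0.32) in AF versus SPF, and neither passed (edgeR adjusted p = 1 and 0.448). Leaving out GF replicate 1 gave 0.34 in AF versus GF, and leaving out GF replicate 3 gave 1.07. In TPM both AF libraries were also the highest, at 80.9 and 87.3 against 61.3 to 73.2 in the others. GF versus SPF gave 0.09 (SE 0.32), which turned to -0.33 without GF replicate 3 and -0.14 without SPF replicate 3. On the opposite strand 3.97% of Ddit3 exon bases overlap exons of Mars, and with no strand setting given, reads there cannot be told apart.

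Trib3, a pseudokinase that ATF4 and CHOP induce and that restrains both, measured 5.22 and 12.7 CPM (SPF), 6.53 and 8.55 CPM (GF), and 18.5 and 10.2 CPM (AF). AF lay above GF (log2 fold change 0.93, SE 0.51, edgeR adjusted p = 1) and overlapped SPF (0.68, SE 0.51). Without AF replicate 2 these values were 0.43 and 0.18, and the AF versus SPF value was 0.17 without SPF replicate 3 and 1.45 without SPF replicate 4. In TPM AF (7.22 and 5.25) overlapped GF (5.31 and 4.03) too. Nupr1, a small stress-induced chromatin protein, was at 0.823 CPM in SPF replicate 4 and at 8.35 to 14.3 CPM in the other 5 libraries. Cebpg, a C/EBP protein that dimerises with ATF4, varied little, from 39.6 to 54.0 CPM.

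Cebpb (chr2:167688915-167690418), a C/EBP transcription factor that is itself induced in amino acid stress, ran the other way. It stood at 20.4 and 21.9 CPM (SPF), 15.7 and 18.997 CPM (GF), and 13.7 and 10.4 CPM (AF), with no overlap between groups. Its log2 fold change was -0.29 (SE 0.23), -0.53 (SE 0.24) and -0.81 (SE 0.24) in GF versus SPF, in AF versus GF and in AF versus SPF (edgeR adjusted p = 0.813, 1 and 0.389). The GF versus SPF value was -0.16 without GF replicate 1. The sign was negative in all 3 comparisons under TMM, median-of-ratios scaling, library totals and TPM, and in TPM the AF libraries (7.46 and 7.47) lay below the 4 others (12.0 to 21.4). In TPM SPF (21.4 and 14.2) and GF (17.9 and 12.0) overlapped. Of the exon bases of Cebpb 20.7% overlap the opposite-strand gene Tmem189. Lymphocyte markers were also lowest in AF, and their part in this value was not tested.

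**Figure D3:**
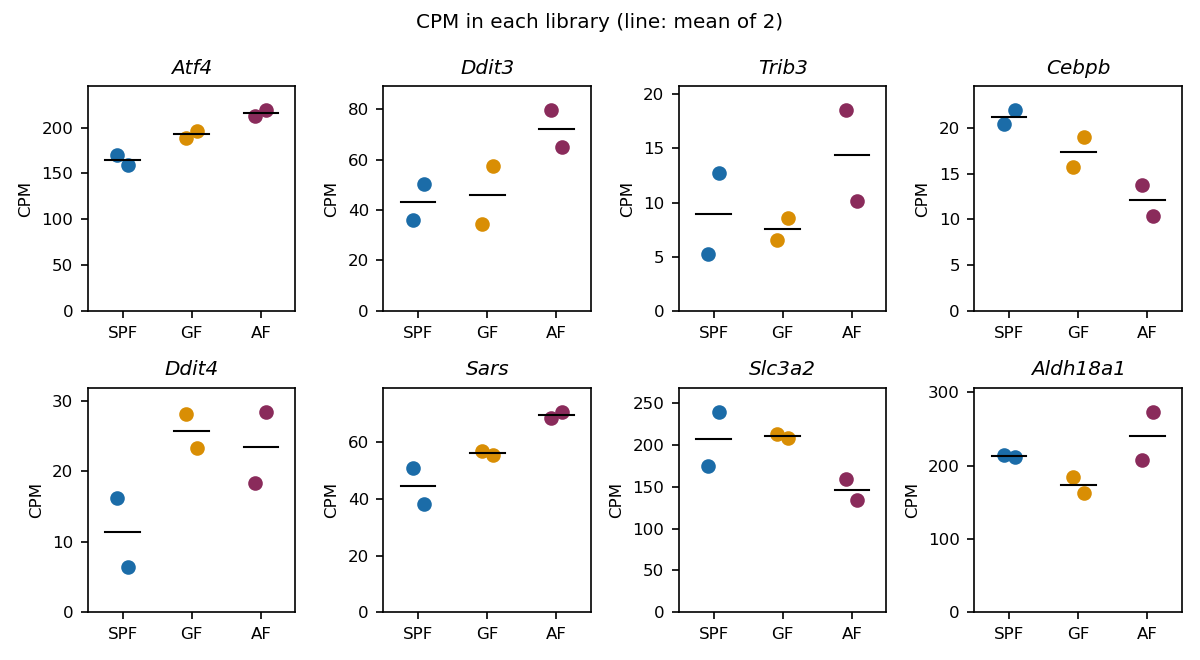
CPM on TMM-scaled totals in each library for 8 members, with points for libraries, a line for the mean of 2, and axes that start at 0. Atf4, Sars, Cebpb, Slc3a2 and Ddit3 show AF libraries outside the range of the other 4. The order of Atf4 and Sars in AF versus GF turns when library totals or TPM are used, and that of Ddit3, Slc3a2 and Cebpb does not.

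Of the feedback arm and the brakes on growth, Ppp1r15a was the most abundant. It measured 49.3 and 64.7 CPM (SPF), 40.0 and 58.6 CPM (GF), and 60.2 and 65.2 CPM (AF). AF lay just above GF and overlapped SPF, and the log2 fold change in AF versus GF, 0.35 (SE 0.26, edgeR adjusted p = 1), was -0.06 on log2(TPM + 1), 0.10 without GF replicate 1 and 0.65 without GF replicate 3. Sesn2, which holds back mTORC1 when leucine is scarce, stayed between 7.14 and 11.2 CPM, and Eif4ebp1, a translation repressor, between 4.28 and 7.51 CPM. Chac1 was low, between 0.274 and 1.88 CPM, with its highest value in SPF replicate 3.

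Ddit4 (REDD1, chr10:59949669-59951834 on GRCm38), which ATF4, glucocorticoids and hypoxia induce and which inhibits mTORC1, was the member with the smallest p in GF versus SPF. It measured 16.2 and 6.45 CPM (SPF), 28.1 and 23.3 CPM (GF), and 18.3 and 28.5 CPM (AF). Both SPF libraries lay below the 4 others on this scale. In TPM, at 14.3 and 3.51 (SPF), 26.8 and 12.4 (GF), and 8.35 and 17.2 (AF), SPF overlapped both other groups. The log2 fold change was 1.18 (SE 0.46) in GF versus SPF and 1.04 (SE 0.46) in AF versus SPF (edgeR adjusted p = 0.738 and 0.464), and it was -0.14 (SE 0.45) in AF versus GF. The GF versus SPF value was 0.66 without SPF replicate 4 and 1.99 without SPF replicate 3. The AF versus SPF value was 0.53 without SPF replicate 4, 1.86 without SPF replicate 3 and 0.66 without AF replicate 3. Without the low-count filter it passed (edgeR adjusted p = 0.014, the 1 member called, where 2.12% of genes were), and so did AF versus SPF (adjusted p = 0.0393, with Nupr1 the other of 2 members called, where 3.53% of genes were). Of 8 tested glucocorticoid targets outside the members, 7 were higher in GF than in SPF and 7 in AF than in SPF, with medians of 0.99 and 0.78 and 0 called by edgeR (4 below an unadjusted p of 0.05 in each). Among them Per1, which also belongs to the circadian clock, measured 14.3 and 5.97 CPM (SPF), 27.8 and 44.0 CPM (GF), and 36.1 and 39.5 CPM (AF), and the sources used here do not state the time of day of sampling. The part of either in the Ddit4 value was not tested.

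The genes of serine, glycine and folate one-carbon synthesis differed more between the 2 SPF libraries than between groups. Phgdh, the first enzyme of serine synthesis, measured 5.40 and 0.343 CPM (SPF), 3.94 and 3.46 CPM (GF), and 1.49 and 3.33 CPM (AF). Psat1, the second, measured 3.57 and 0.137 CPM (SPF), 3.32 and 2.51 CPM (GF), and 1.73 and 2.85 CPM (AF). The value of Psat1 in SPF replicate 4 rests on 2 counts and lies below the floor of 0.206 CPM there. Mthfd2, a mitochondrial folate enzyme, measured 7.83 and 1.03 CPM (SPF), 6.38 and 5.56 CPM (GF), and 4.08 and 7.55 CPM (AF).

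For each of these 3 genes SPF replicate 4 was the lowest of the 6 libraries, and the SPF range held all of the other values. Shmt2, which splits serine to glycine in mitochondria, varied less, at 17.0 and 8.71 CPM (SPF), 15.5 and 8.89 CPM (GF), and 11.2 and 13.5 CPM (AF). Psph, the last enzyme of serine synthesis, stayed between 1.51 and 2.98 CPM, and 10.4% of its exon bases overlap Cct6a on the other strand. None of these 5 genes had groups apart in GF versus SPF or AF versus SPF. In AF versus GF 1 of them, Phgdh, was lower without overlap, against 17.8% of all genes. Its log2 fold change there was -0.61 (SE 1.08, edgeR adjusted p = 1). That value was -0.15 without AF replicate 2 and -1.33 without AF replicate 3.

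Asns (chr6:7675169-7693254 on GRCm38) showed the same split, with 17.1 and 2.61 CPM (SPF), 11.3 and 11.3 CPM (GF), and 9.97 and 12.7 CPM (AF). The 4 GF and AF libraries lay between the 2 SPF libraries. Its log2 fold change in GF versus SPF was 0.18 (SE 0.75, edgeR adjusted p = 0.957), with a 95% interval from -1.66 to 2.02, and it was -0.61 without SPF replicate 4 and 2.11 without SPF replicate 3. The 95% interval in AF versus GF ran from -1.84 to 1.85.

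Such a gap between the SPF libraries was frequent among the members. In SPF replicate 4, 9 of the 30 tested members (30%) stood more than 4 times lower than in SPF replicate 3, against 12.2% of all genes. They were Psat1 (26.0 times, on 78 counts against 2, with an exact 95% counting interval from 6.97 to 219 times), Phgdh (15.8 times), Slc7a5 (14.9 times), Nupr1 (11.1 times), Vldlr (9.08 times), Gpt2 (7.82 times), Mthfd2 (7.61 times), Chac1 (6.84 times) and Asns (6.57 times). The other values in SPF replicate 4 also rest on few counts: 5 (Phgdh), 4 (Slc7a5), 12 (Nupr1), 5 (Vldlr), 7 (Gpt2), 15 (Mthfd2), 4 (Chac1) and 38 (Asns). The share of all genes was not matched to the members by level. No member stood more than 4 times higher in SPF replicate 4, against 0.865% of all genes. Summed crypt and proliferation markers were also lower in that library (94.5 against 573 CPM), as were Paneth (42.5 against 1433 CPM), goblet (2807 against 29180 CPM), enteroendocrine (331.5 against 1248 CPM) and tuft cell markers (14.0 against 51.5 CPM). The summed enterocyte and epithelial markers were higher there (54520 against 26330 CPM), and the highest of the 6 libraries. Of that sum in SPF replicate 4, Apoa1 gave 16053 CPM and Apoa4 17986 CPM. The part of these cell types in the members' values was not tested.

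**Figure D4:**
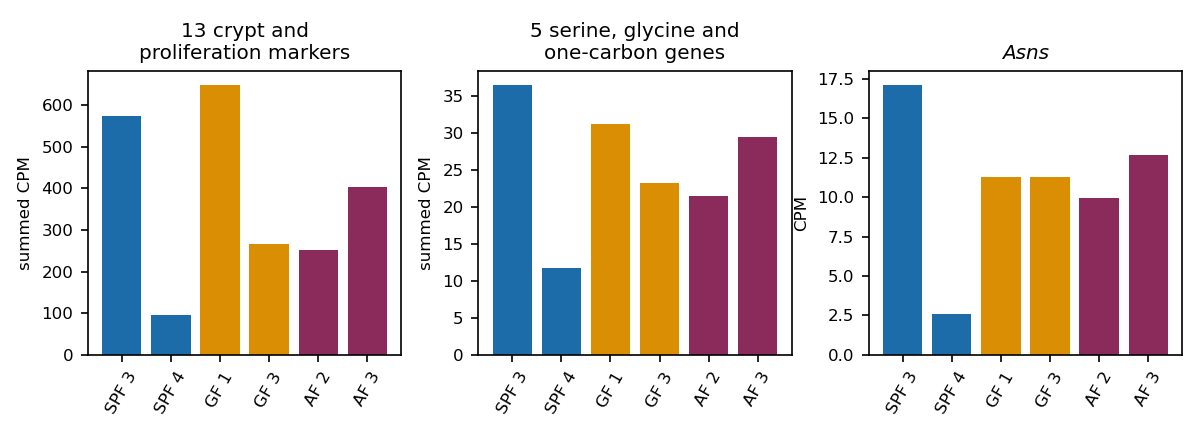
Summed CPM of 13 crypt and proliferation markers (left), summed CPM of the 5 serine, glycine and one-carbon genes (middle) and CPM of Asns (right) in each library, with axes from 0 and bars coloured by group. SPF replicate 4 is the lowest bar in each panel, at 94.5, 11.7 and 2.61 CPM.

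With SPF replicate 3 left out, so that replicate 4 alone stood for SPF and was assumed to vary like the other groups, edgeR called 4 members higher in GF than in SPF. They were Nupr1 (adjusted p = 0.028), Asns (adjusted p = 0.0425), Gpt2 (adjusted p = 0.0445) and Wars (adjusted p = 0.0475), where 2.7% of all genes were called. In AF versus SPF the same fit called 5 members higher, Nupr1, Asns, Gpt2, Ddit4 and Slc7a5, where 4.41% of all genes were called. With SPF replicate 4 left out it called 0 members in each comparison.

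**Figure D5:**
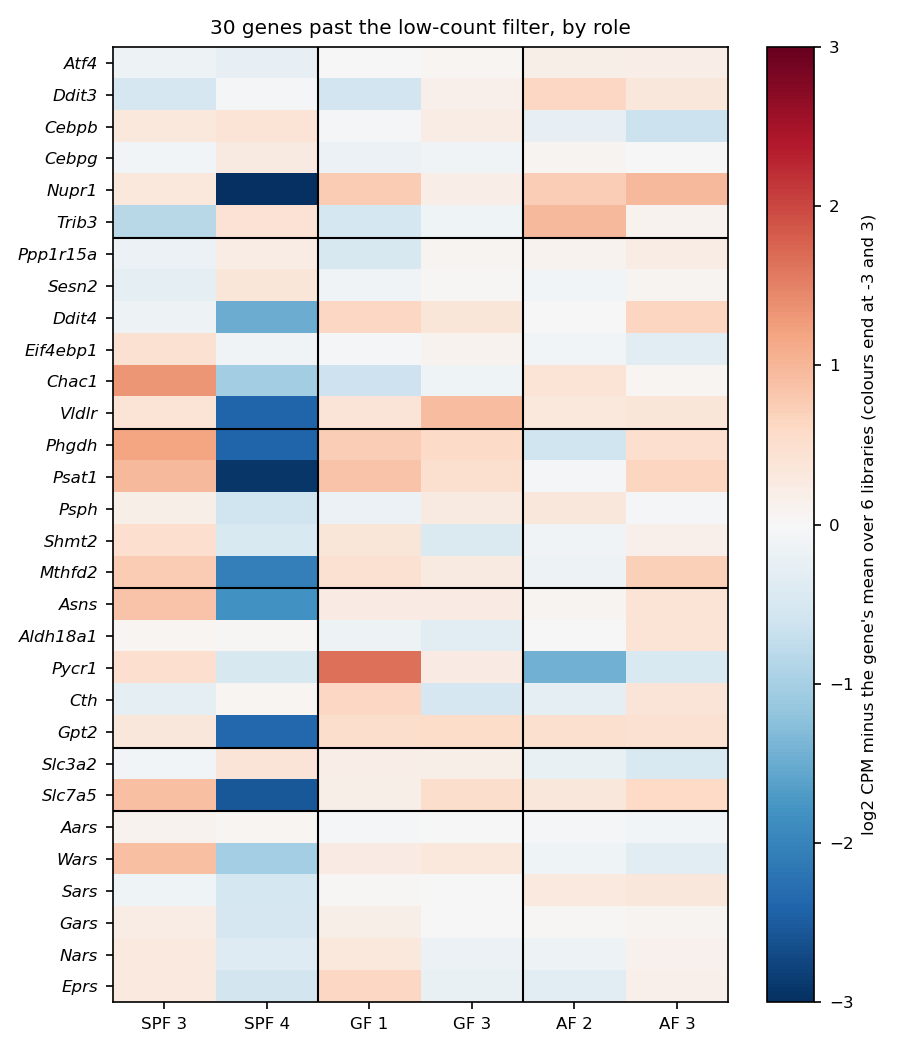
Log2 CPM of the 30 tested members minus each gene's mean over the 6 libraries, with rows in role order (regulators, feedback and growth brakes, serine and one-carbon synthesis, other amino acid synthesis, transporters, synthetases) and black lines between roles and groups. The second column, SPF replicate 4, is deep blue for Nupr1, Vldlr, Phgdh, Psat1, Mthfd2, Asns, Gpt2 and Slc7a5. The columns share TMM scaling, and the colours end at -3 and 3.

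Among other enzymes of amino acid synthesis, Aldh18a1 was abundant and Pycr1 scarce, at mean levels of 69.1 and 0.737 TPM. Both lie on the route from glutamate to proline, and Aldh18a1 also feeds ornithine and citrulline, which the small intestine exports. Aldh18a1 measured 214 and 212 CPM (SPF), 185 and 163 CPM (GF), and 208 and 274 CPM (AF). GF was the lowest group without overlap, with a log2 fold change of -0.29 (SE 0.26, edgeR adjusted p = 0.829) against SPF and 0.47 (SE 0.26, adjusted p = 1) in AF versus GF, while in TPM the groups overlapped. Without AF replicate 3 the AF versus GF value was 0.23. In AF versus SPF it was 0.18 (SE 0.26), and -0.05 without AF replicate 3, -0.01 with library totals and -0.31 on log2(TPM + 1).

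Pycr1 measured 0.916 and 0.412 CPM (SPF), 2.19 and 0.746 CPM (GF), and 0.157 and 0.416 CPM (AF). The AF value of replicate 2 rests on 2 counts and lies below the floor of 0.236 CPM. AF was below GF (log2 fold change -2.31, SE 0.91, edgeR adjusted p = 1), and GF replicate 1, with 60 counts, set much of the size, since the value was -1.32 without it. Other genes of this branch, picked after their values were seen, were abundant per length: Oat, which links ornithine to the proline route, averaged 253 TPM, Cps1 of citrulline synthesis 73.1 TPM and Pycrl, a further reductase of the family, 32.3 TPM.

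Cth, which makes cysteine from cystathionine, measured 26.4 and 33.5 CPM (SPF), 49.4 and 22.5 CPM (GF), and 26.5 and 42.1 CPM (AF). Its GF libraries spanned the others, and the log2 fold change in GF versus SPF of 0.27 (SE 0.42) was -0.41 without GF replicate 1. Gpt2, the mitochondrial alanine transaminase, was even in 5 libraries, at 3.76 to 4.34 CPM, and at 0.480 CPM in SPF replicate 4.

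Of the transporters, Slc3a2 (chr19:8706882-8723369 on GRCm38) was lower in AF. It measured 174 and 239 CPM (SPF), 213 and 208 CPM (GF), and 159 and 134 CPM (AF), and both AF libraries lay below the 4 others. The log2 fold change was -0.52 (SE 0.27) in AF versus GF and -0.50 (SE 0.27) in AF versus SPF (edgeR adjusted p = 1 and 0.534), and it was 0.03 (SE 0.27) in GF versus SPF. The AF versus SPF value was -0.25 without SPF replicate 4 and -0.71 without SPF replicate 3. The AF libraries were also the lowest in TPM, at 73.8 and 83.0 against 111 to 202. Lymphocyte markers were lowest in AF as well, and their part in this value was not tested.

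SLC3A2 works only with a light chain. Slc7a5, the light chain among the members, measured 4.08 and 0.274 CPM (SPF), 2.41 and 3.12 CPM (GF), and 2.75 and 3.27 CPM (AF), and averaged 0.868 TPM. Slc7a11 had 0 to 6 counts per library, at most 0.407 CPM, and no fold is given. The basolateral light chains of enterocytes, Slc7a7 and Slc7a8, which are no members and were chosen after their values were seen, averaged 73.0 and 41.6 TPM. Slc7a7 measured 132 and 172 CPM (SPF), 150.2 and 150.4 CPM (GF), and 102 and 71.4 CPM (AF). Slc7a8 measured 138 and 206 CPM (SPF), 188 and 168 CPM (GF), and 99.4 and 103.5 CPM (AF). Both were lowest in AF without overlap, with log2 fold changes in AF versus GF of -0.80 and -0.81 (edgeR adjusted p = 1 for each). Of all genes, 17.8% were lower without overlap in AF than in GF, and 22.6% in AF than in SPF. Slc7a6, a further light chain outside the members, did not share this fall. It averaged 1.00 TPM, and its groups overlapped in each comparison. Its log2 fold change was -0.03 (SE 0.92) in AF versus GF and 0.65 (SE 0.93) in AF versus SPF.

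The 6 aminoacyl-tRNA synthetases, which charge tRNA with its amino acid, shared no common order of the groups. Sars (chr3:108424865-108445209), the seryl-tRNA synthetase, measured 50.8 and 38.3 CPM (SPF), 56.6 and 55.4 CPM (GF), and 68.4 and 70.7 CPM (AF). The groups did not overlap, and the log2 fold change was 0.33 (SE 0.21), 0.31 (SE 0.21) and 0.64 (SE 0.21) in GF versus SPF, in AF versus GF and in AF versus SPF (edgeR adjusted p = 0.775, 1 and 0.389). In TPM the groups overlapped. The GF versus SPF value was 0.13 without SPF replicate 4 and 0.55 without SPF replicate 3. In AF versus GF it was -0.04 with library totals and -0.11 on log2(TPM + 1), which lay 0.34 and 0.25 above the median of all genes. Atf4 and Sars were the 2 of 30 members (6.67%) ordered SPF, GF, AF from low to high without overlap, against 2.76% of all genes, and Cebpb and Aars the 2 ordered from high to low, against 4.01%. Tuft cell markers had the same rising order: their sum was 51.5 and 14.0 CPM (SPF), 73.8 and 104.6 CPM (GF), and 156 and 153 CPM (AF). All 5 tested of 6 were higher without overlap in each comparison, against 16.8, 15.8 and 22% of all genes. Their medians were 1.69, 0.70 and 2.23, with 0 called by edgeR (2, 0 and 4 below an unadjusted p of 0.05). Pou2f3 and Il25 were at 0 in some library. The 8 enteroendocrine markers summed to 1248 and 331.5 CPM (SPF), 1375 and 3308 CPM (GF), and 2051 and 2584 CPM (AF), with medians of 1.64, -0.12 and 1.56 and 0 called (5, 0 and 4 below an unadjusted p of 0.05). The part of these cells in the values of Atf4 and Sars was not tested.

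Aars, the alanyl-tRNA synthetase, fits that falling order only by small steps, from 67.9 CPM in SPF replicate 3 to 60.3 CPM in AF replicate 3. In TPM its GF libraries overlapped both other groups, and 14.3% of its exon bases overlap Exosc6 on the same strand. Nars measured 140.1 and 88.4 CPM (SPF), 144 and 101 CPM (GF), and 103 and 125 CPM (AF), with all groups overlapping. Wars, the tryptophanyl-tRNA synthetase, which interferon gamma also induces, ranged from 19.2 CPM in SPF replicate 4 to 72.9 CPM in SPF replicate 3, and both AF libraries (35.4 and 31.5 CPM) lay below both GF libraries (46.4 and 48.8 CPM). Gars stayed between 32.2 and 53.0 CPM, and Eprs between 28.0 and 63.0 CPM, each lowest in SPF replicate 4.

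Counted by group, the tested members without overlap were 4 higher (13.3% of 30) and 4 lower (13.3%) in GF versus SPF. Of all genes, 16.8 and 17.1% were. In AF versus GF the members were 8 higher (26.7%) and 9 lower (30%), against 15.8 and 17.8% of all genes. In AF versus SPF they were 6 higher (20%) and 3 lower (10%), against 22 and 22.6%. By role, 4 of the 6 regulators (Atf4, Ddit3, Cebpg and Trib3) were higher in AF than in GF on TMM-scaled counts, and Cebpb was lower, while the estimates of Atf4 and Cebpg were negative with library totals and with TPM, and Trib3 overlapped in TPM. Of the 5 serine, glycine and one-carbon genes, 0 were higher in AF than in GF and 1 was lower.

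Further genes of the pathway, outside the members, gave no called gene either. Of 28 more ATF4 targets, 25 were tested and edgeR called 0 in any comparison, with medians of 0.15, -0.05 and 0.16 in GF versus SPF, in AF versus GF and in AF versus SPF. At an unadjusted p below 0.05 there were 2, 0 and 3. Ero1l, an oxidase of the endoplasmic reticulum that CHOP induces, measured 34.2 and 39.4 CPM (SPF), 25.9 and 21.8 CPM (GF), and 17.7 and 20.7 CPM (AF). Klhl24, an ubiquitin ligase adaptor, measured 5.45 and 5.97 CPM (SPF), 10.2 and 7.94 CPM (GF), and 10.4 and 15.3 CPM (AF). Atf3, an ATF4-induced repressor that cell dissociation also induces, was highest in AF on TMM-scaled counts. It measured 272 and 257 CPM there, against 185 to 215 CPM in the others.

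Upstream of ATF4, 17 genes of the eIF2 kinases, eIF2, eIF2B and their regulators were tested and 0 were called, with 2, 0 and 3 below an unadjusted p of 0.05. In AF versus SPF 15 of the 17 estimates were negative, with a median of -0.20. Ppp1r15b, the constitutive eIF2 phosphatase subunit, measured 113 and 151 CPM (SPF), 83.7 and 88.3 CPM (GF), and 72.9 and 69.2 CPM (AF). Its log2 fold change in AF versus SPF was -0.89, with an edgeR adjusted p of 0.376. Eif2ak2, the interferon-induced kinase PKR, measured 38.0 and 49.7 CPM in SPF and 28.0 to 31.3 CPM in the other 4 libraries. The Y-linked Eif2s3y, which encodes a copy of the gamma subunit of eIF2, was at 0 counts in SPF and at 20.7 to 24.3 CPM elsewhere.

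In neighbouring stress pathways edgeR called 0 genes of each list as well. The genes below an unadjusted p of 0.05 in GF versus SPF, in AF versus GF and in AF versus SPF numbered 3, 1 and 2 for the unfolded protein response, 2, 1 and 2 for amino acid sensing, and 1, 1 and 4 for NRF2 targets. Of 21 tested genes of the ATF6 and XBP1 arms of the unfolded protein response, 16 had negative estimates in AF versus SPF, with a median of -0.14, and Herpud1, of protein degradation at the endoplasmic reticulum, was among the 5 positive, at 51.6 and 61.9 CPM (SPF), 74.6 and 82.8 CPM (GF), and 88.1 and 94.5 CPM (AF). Of 22 genes of amino acid sensing upstream of mTORC1, medians were 0.07, -0.06 and 0.04. Flcn, which acts on the Rag GTPases in that pathway, measured 18.96 and 30.7 CPM (SPF), 24.8 and 31.8 CPM (GF), and 55.7 and 51.6 CPM (AF). Of 11 targets of NRF2, which shares Slc7a11 with ATF4, 11 had negative estimates in GF versus SPF and 10 in AF versus SPF, with medians of -0.58 and -0.86. Nqo1, a quinone reductase, measured 15.4 and 26.8 CPM (SPF), 18.9 and 11.1 CPM (GF), and 5.26 and 4.46 CPM (AF).

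Genes that tissue handling can induce were followed beside the members. Of 16 immediate early and dissociation genes, 16 had positive estimates in AF versus GF on TMM-scaled counts. Their median was 0.19 beside -0.02 over all genes, and 7 did not overlap (43.8%, against 15.8% of all genes). The estimates ran from only 0.02 to 0.55. Library totals moved the median of all genes in that comparison to -0.38, and log2(TPM + 1) moved it to -0.36. The signs of these genes therefore rest on the scaling. edgeR called 0 of them, with 0 below an unadjusted p of 0.05. Atf3 and Ppp1r15a are known to respond to dissociation as well, and the part of handling in the members' values was not tested. Of 17 further cytosolic synthetases and scaffold genes, edgeR called 0 (1 below an unadjusted p of 0.05), with medians of 0.09, -0.09 and 0.11. Cars, the cysteinyl-tRNA synthetase, measured 27.3 and 23.7 CPM (SPF), 19.6 and 24.1 CPM (GF), and 34.5 and 28.8 CPM (AF). Of 16 mitochondrial synthetases edgeR called 0 (0 below an unadjusted p of 0.05), with medians of 0.13, -0.03 and 0.14. In the interferon list, 15 of 15 had negative estimates in GF versus SPF and in AF versus SPF, with medians of -1.40 and -1.24 and 0 called by edgeR (10 below an unadjusted p of 0.05 in each), and interferons also induce Wars and Eif2ak2.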

How the data were processed

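Per the submitters' processing notes, STAR 2.5.2b, RSEM (with no version named), edgeR 3.16.5 and the GRCm38/mm10 genome were used. Annotation release and strand setting: not given in the sources used here. The deposited tables hold, per the file headers, RSEM's expected counts, not scaled between libraries, and TPM values, which are scaled by length and to a fixed total. The deposited posterior standard deviation of the count was at most 3.08% of the count for Psph, 2.42% for Phgdh and 1.39% for Cebpb in libraries with 10 or more counts.

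Counts were rounded for edgeR (23.5% of values above 0 were not whole within 0.001). Symbols came from GENCODE for GRCm38 (51633 of 51912 genes), promoter windows from RefSeq (GRCm38.p6). The stretch of 1 member with a match before the start is not reported here. All 6 libraries entered 1 fit in edgeR 4.0.16 (R 4.3.3): TMM, filterByExpr, estimateDisp and the quasi-likelihood test, with 3 residual and 3.08 prior degrees of freedom and a common biological coefficient of variation of 0.368. SEs were derived from F and the log2 fold change. Fold changes on TPM are on the log2(TPM + 1) or log2(TPM + 0.1) scale (limma 3.58.1), which understates changes of low genes. DESeq2 1.42.0 was an alternative. The fit was checked on simulated counts, with changes larger than most of the members' estimates. Such a check cannot show how often changes of the members' size would be called. Replicates of a group differed beyond sampling noise (chi-square per gene 44.6 to 239), so none was treated as a copy of the other. That cannot show whether they came from separate animals. Floors cover counting error only.

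Members, roles and lists were chosen with earlier results of these data known. Values in every library are given for Atf4, for members below an unadjusted p of 0.05, and for the 2 members of each role highest in TPM. Of each further list, at most 2 genes per comparison with the smallest p are named. Trib3, Phgdh, Psat1, Asns, Atf3, Aldh18a1's branch, the light chains and the sex-linked genes were shown after their values were seen. The alternatives were other tests, scalings and filters, TPM, fits of the compared groups alone, leaving out the 20 most abundant genes, and each library left out in turn.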

Additional observations from a re-analysis of the deposited data

How the results depend on the processing

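Depth and 2 libraries a group limit what can be called, and members near the floor (Slc7a11, Stc2, Pycr1, Chac1) most. Members called stayed at 0 in every comparison under the alternatives run, except as follows. Without a low-count filter 1 member was called in GF versus SPF (Ddit4), 2 in AF versus SPF (Ddit4 and Nupr1) and 1 for any difference. With 1 library left out in turn, 0 to 4 members were called in GF versus SPF, 0 in AF versus GF, 0 to 5 in AF versus SPF and 0 to 1 for any difference, all of these calls without SPF replicate 3.

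The members' median in AF versus GF moved from -0.03 to -0.40 with library totals and to -0.44 on log2(TPM + 0.1), beside medians of all genes of -0.38 and -0.42. With 1 library left out it ranged from -0.093 to 0.56 in GF versus SPF, -0.11 to 0.14 in AF versus GF and -0.16 to 0.51 in AF versus SPF.

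Over all genes, 2, 2 and 6 were called in GF versus SPF, in AF versus GF and in AF versus SPF. DESeq2 gave 80, 51 and 272, the likelihood ratio test 97, 53 and 298, and the quasi-likelihood test 484, 264 and 804 without a filter. With only the groups compared they were 0, 8 and 2. In GF versus SPF and AF versus GF they were 0 and 4 with library totals, 5 and 9 on log2(TPM + 1), and 4 and 5 on log2(TPM + 0.1). With 1 library left out they ranged from 0 to 387, 0 to 9 and 0 to 631. The cause of these moves was not tested. No paired analysis was possible because any 2 groups share only replicate number 3 in the labels.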

Other observations

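Lars2, the mitochondrial leucyl-tRNA synthetase, stood far above its relatives and apart in 1 library. It measured 2542 and 2074 CPM (SPF), 380.4 and 3618 CPM (GF), and 3791 and 4282 CPM (AF). Its log2 fold change in AF versus GF was 1.01 (edgeR adjusted p = 1).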
